A study of Mus musculus with 16 samples.

Results

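The calponin genes Cnn1, Cnn2 and Cnn3 were followed through thymocytes of 2 mouse strains. The members were all probe sets whose single gene symbol in the platform annotation was Cnn1, Cnn2 or Cnn3, which gave 3 probe sets, 1 per gene, out of 12422 probe sets tested and 8251 named genes. The genes were chosen with the NOD minus B6g7 differences and the levels of the 6 groups already known, so every difference of a calponin between groups, by strain, peptide or transgene, is given as a description without a test. Tests are given for other genes only.

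Total RNA of CD4+CD8+ thymocytes, the double-positive stage of T cell development, came from fetal thymic organ culture and was hybridised to 16 Affymetrix arrays. BDC2.5 is a transgenic T cell receptor from a diabetogenic CD4 T cell clone. On the B6g7 background there were 3 arrays of BDC2.5 cells to which no peptide was given, 3 of BDC2.5 cells with peptide for 16 h and 2 of cells lacking the transgene, called wild-type. The NOD background had the same 3 groups with the same numbers of arrays. NOD mice develop autoimmune diabetes spontaneously, and B6g7 mice are C57BL/6 mice with the MHC haplotype of NOD, so the groups of both strains share that haplotype. Neither the peptide's identity, its dose nor the fetal age is given in the labels, and whether peptide was added to wild-type cultures is not stated. Nor is it stated that the arrays of a group came from different animals, so the p-values given for other genes measure the spread between these arrays, which may be technical.

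Calponins are actin-binding proteins with an N-terminal calponin homology (CH) domain followed by short repeats that bind filaments. Calponin 1 (Cnn1) is the smooth muscle form and restrains actomyosin activity in contraction. Calponin 2 (Cnn2) is found in smooth muscle and in non-muscle cells, among them myeloid cells, where it affects adhesion and motility. Calponin 3 (Cnn3), the acidic form, is best known from brain, embryonic tissue and myoblast fusion.

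The upstream sequences of Cnn2 and Cnn3 are shown because these were the members whose values varied between groups, each along a different axis of the design. They are the 250 bases before the RefSeq transcript start in GRCm38.p6, the C57BL/6J reference, and are not sequences of the NOD or B6g7 mice studied. The Cnn2 stretch is chr10:79988350-79988599 and the Cnn3 stretch is chr3:121426291-121426540, both on the plus strand. Capitals mark matches, on either strand, to the CArG box that serum response factor (SRF) binds, to CCAAT and to GGGCGG. The E-box CACGTG was searched as well and matched neither stretch. Nor did the TATA box, searched as TATAAA.

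Cnn2: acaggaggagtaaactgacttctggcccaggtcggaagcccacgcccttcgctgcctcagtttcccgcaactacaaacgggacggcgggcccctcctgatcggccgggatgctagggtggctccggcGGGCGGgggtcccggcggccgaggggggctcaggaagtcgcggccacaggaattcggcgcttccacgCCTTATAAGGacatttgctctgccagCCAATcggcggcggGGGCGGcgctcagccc

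Cnn3: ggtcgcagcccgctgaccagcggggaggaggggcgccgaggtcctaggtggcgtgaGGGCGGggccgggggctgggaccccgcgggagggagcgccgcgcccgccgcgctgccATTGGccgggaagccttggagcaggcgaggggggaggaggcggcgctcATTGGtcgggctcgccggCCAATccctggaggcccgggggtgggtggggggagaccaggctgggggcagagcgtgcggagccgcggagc

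Cnn2 held 1 CArG match, CCTTATAAGG, from 56 to 47 bases before the start, and 1.47% of the 32851 mouse windows of this length held such a match. It also held 1 CCAAT and 2 GGGCGG matches, which lie in 33.8% and 32.7% of windows. Cnn3 held 3 CCAAT matches, 2 of them on the minus strand, and 1 GGGCGG match. The Cnn1 window, not shown, held 2 CCAAT matches and none of the other motifs. The GC content of the stretches was 59.2% for Cnn1, 68.4% for Cnn2 and 78.8% for Cnn3. A match is a description of the letters, not a measured site.

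Markers of double-positive cells were present on all arrays. Over the 16 arrays Cd8a lay between 1074 and 5146, Rag1 between 543 and 4745 and Cd4 between 158 and 327. Of the 11 measured markers limma called Cd3g, a chain of the CD3 complex, higher in NOD without peptide (1.17, adjusted p = 0.0459). Cd3g gave 0.93 and 1.06 in the other settings. Cd8b1, the CD8 beta chain, was called lower in NOD at 16 h (-2.02, adjusted p = 0.0247) and gave -1.89 and -1.86 in the others. Of all probe sets limma called 0.266% without peptide and 0.491% at 16 h. The summed markers differed by 0.00, 0.21 and -0.15 between strains without peptide, with it and in wild-type cells. Member by member, 6, 10 and 6 of the 11 were higher in NOD, beside 60.3%, 51.7% and 41.2% of all probe sets. Their medians were 0.08, 0.39 and 0.04, beside 0.03, 0.01 and -0.03. At 16 h only Cd8b1 was lower. The array medians lay between 54.7 and 59.1. The 6 highest-numbered arrays, number 3 of each BDC2.5 group and number 2 of each wild-type group, stood apart from the other 10: their 3' minus 5' beta-actin signal was 1.37 to 1.96 on the log2 scale against 2.24 to 3.27, and they held the highest scores on the first principal component. Because every group holds 1 of them, results are also given without them. They are 1 of 3 arrays in each BDC2.5 group but 1 of 2 in each wild-type group. The transgene differences are therefore not balanced for them.

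Cnn3 was lower in NOD than in B6g7 in all 3 settings. In BDC2.5 cells without peptide its intensity was 554, 1219 and 776 on the B6g7 arrays numbered 1, 2 and 3. On the NOD arrays it was 81.8, 167 and 98.5. Every NOD array lay below every B6g7 array in this setting, and within each strain the array numbered 2 was the highest.

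At 16 h of peptide Cnn3 read 481, 864 and 490 in B6g7. It read 198, 193 and 199 in NOD. The NOD arrays were closely grouped here, with an SD of 0.02 on the log2 scale against 0.48 in B6g7, and again lay below all B6g7 arrays. In wild-type cells Cnn3 read 809 and 999 in B6g7 and 123.1 and 90.2 in NOD, again without overlap. Over all settings the 8 NOD arrays ran from 81.8 to 199 and the 8 B6g7 arrays from 481 to 1219, so that the lowest B6g7 array was 2.42 times the highest NOD array.

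**Figure D1:**
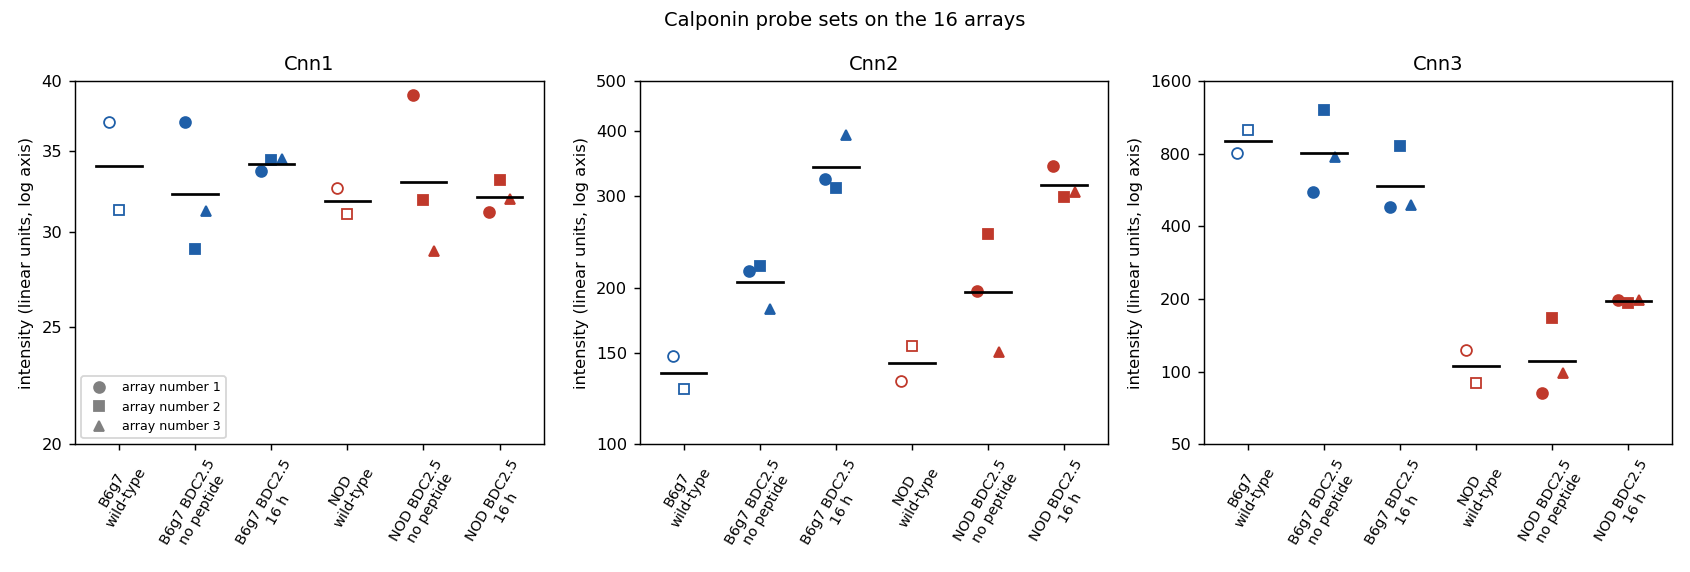
Intensity (linear units on a log axis) of the probe sets of Cnn1, Cnn2 and Cnn3 on each of the 16 arrays by group; marker shape gives the array number in the labels, open markers are wild-type, and black lines are the means of log2 values. Cnn3 separates the strains (81.8 to 199 in NOD, 481 to 1219 in B6g7), Cnn2 is highest at 16 h of peptide in both strains, and Cnn1 stays between 28.9 and 38.9.

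The log2 difference of Cnn3, NOD minus B6g7, was -2.87 ± 0.33 (SE of the fit, n = 3 per group) without peptide, with a B6g7 level 7.31 times that of NOD. It was -1.58 ± 0.33 at 16 h of peptide (2.99 times) and -3.09 ± 0.40 in wild-type cells (8.53 times, n = 2 per group). Ordered by the size of the strain difference among the 12422 probe sets, Cnn3 stood at places 2, 19 and 1 in these settings. The same-numbered arrays gave -2.76, -2.87 and -2.98 without peptide, -1.28, -2.16 and -1.30 at 16 h, and -2.72 and -3.47 in wild-type cells. The spread of these values was small without peptide and larger at 16 h, where the arrays numbered 2 gave the greatest difference.

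The background of these comparisons was sparse. limma, adjusted by Benjamini-Hochberg over all probe sets, called 33 probe sets (0.266%; 0.0886% higher and 0.177% lower in NOD) between strains without peptide, 61 (0.491%; 0.121% and 0.37%) at 16 h and 11 (0.0886%; 0.0161% and 0.0725%) in wild-type cells, and with the replicate number as a block it called 69, 129 and 32. Probe sets with every NOD array below every B6g7 array made up 2.37%, 5.39% and 14.3% of all in the 3 settings, and 62 probe sets (0.499%) had all 8 NOD arrays below all 8 B6g7 arrays. Cnn3 was chosen on these contrasts, so nothing is read from its place in them.

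**Figure D2:**
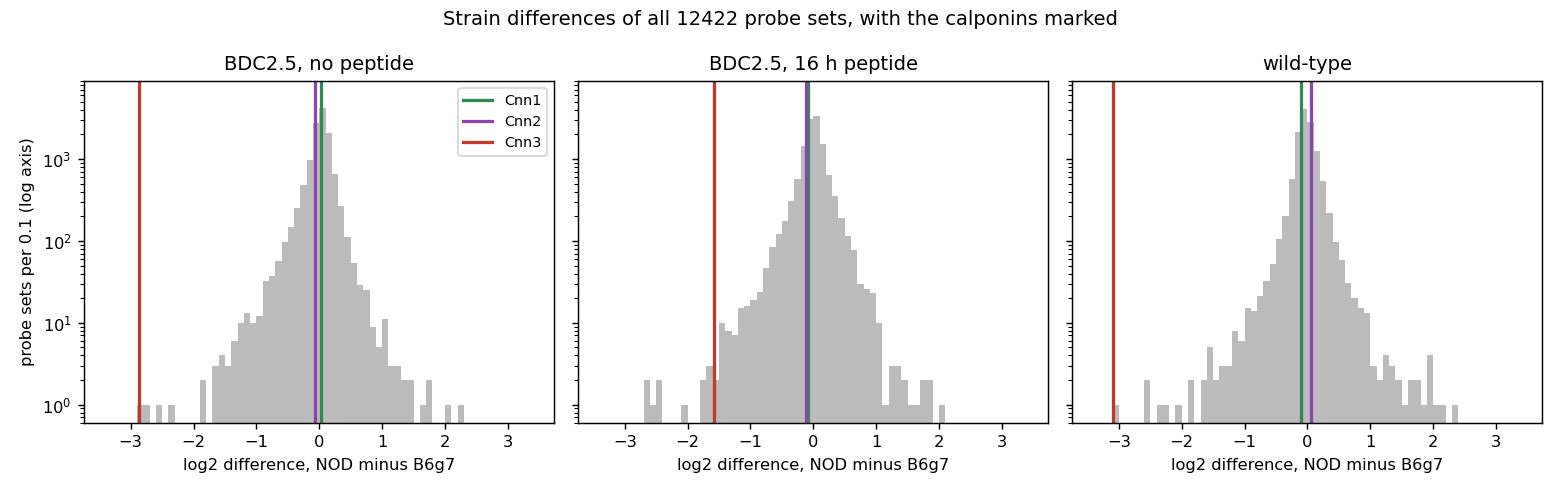
Histograms of the log2 strain difference (NOD minus B6g7, horizontal axis) of all 12422 probe sets in the 3 settings, with counts per 0.1 on a log axis and vertical lines at the 3 calponins. Cnn3 lies at -2.87, -1.58 and -3.09, at the lower edge of the distributions, while Cnn1 and Cnn2 lie within 0.12 of 0.

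The strain difference of Cnn3 was present in both sets of arrays. Without the 6 highest-numbered arrays it was -2.82, -1.72 and -2.72 in the settings in the order above, and in the highest-numbered arrays alone -2.98, -1.30 and -3.47. For wild-type cells these correspond to 6.57 and 11.1 times. The name of the Cnn3 probe set carries a suffix for probes that may match similar sequences, as does that of Cnn1, while that of Cnn2 does not. Probe-level values were not analysed here, so signal of similar transcripts cannot be told apart.

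Ordered from high to low by mean log2 level, the Cnn3 groups were wild-type B6g7 (9.81), BDC2.5/B6g7 without peptide (9.66), BDC2.5/B6g7 at 16 h (9.20), BDC2.5/NOD at 16 h (7.62), BDC2.5/NOD without peptide (6.79) and wild-type NOD (6.72). The 3 B6g7 groups overlapped with their neighbours, with gaps of 0.16 and 0.45. The step to NOD at 16 h was 1.58 and the next step to NOD without peptide was 0.84, each without overlap and larger than the SD of either group. The 2 lowest groups overlapped and differed by 0.07.

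The peptide values of Cnn3 pointed in opposite directions in the strains. Between no peptide and 16 h the same-numbered B6g7 arrays gave -0.20, -0.50 and -0.66, and the NOD arrays gave 1.28, 0.22 and 1.01. The B6g7 groups overlapped and the NOD groups did not. The within-strain differences were -0.45 ± 0.33 in B6g7 and 0.84 ± 0.33 in NOD, and leaving out single arrays moved them between -0.73 and -0.16 and between 0.62 and 1.13. The mean over strains was 0.19 ± 0.23. The NOD response minus the B6g7 response was 1.29 ± 0.46 on the log2 scale, and it was not tested.

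**Figure D3:**
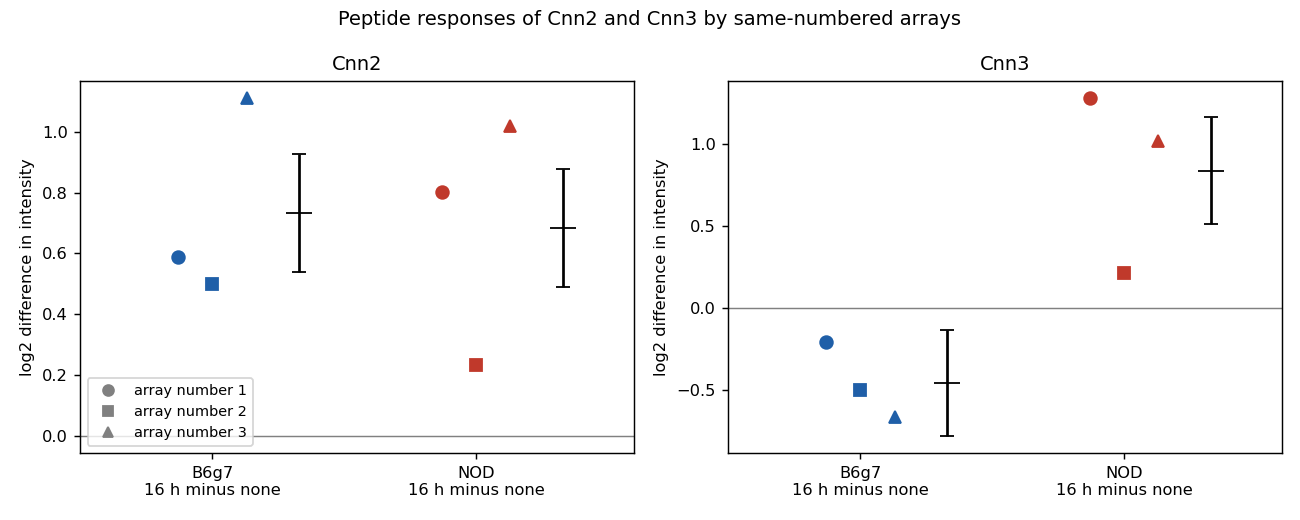
Log2 difference in intensity between 16 h of peptide and no peptide for same-numbered arrays (marker shape) of each strain, with the difference of group means and its standard error from the fit in black. Cnn2 lies above 0 in 6 of 6 pairs, and Cnn3 lies below 0 in the 3 B6g7 pairs and above 0 in the 3 NOD pairs.

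The transgene differences of Cnn3 were smaller than their standard errors. BDC2.5 cells without peptide minus wild-type cells gave -0.16 ± 0.36 in B6g7 and 0.07 ± 0.36 in NOD, and the mean over strains was -0.05 ± 0.26. Leaving out single arrays took the within-strain values from -0.46 to 0.11 in B6g7 and from -0.23 to 0.29 in NOD, so neither had a stable sign.

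Cnn2 read higher on the peptide arrays of both strains. In B6g7 BDC2.5 cells the arrays without peptide read 216, 220 and 182 and the peptide arrays 324, 312 and 394. In NOD the arrays read 197, 254 and 151 before peptide and 344, 299 and 305 with it. All 6 peptide arrays, from 299 up, lay above all 6 BDC2.5 arrays without peptide, which reached 254 at most, and 23 probe sets (0.185%) did so.

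Averaged over strains, the peptide difference of Cnn2 was 0.71 ± 0.14 on the log2 scale (1.63 times), higher at 16 h in 6 of 6 same-numbered pairs. The values were 0.73 ± 0.19 in B6g7 and 0.68 ± 0.19 in NOD. Over all probe sets limma called 3 in this comparison (0.0242%), all higher with peptide, and 7 with the replicate block. The Cnn2 difference is given as a description without a test. Without the 6 highest-numbered arrays the Cnn2 difference was 0.53, and in those arrays alone it was 1.06.

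Wild-type cells had the lowest Cnn2, at 148 and 128 in B6g7 and at 132 and 155 in NOD. BDC2.5 cells without peptide minus wild-type cells gave 0.58 ± 0.21 in B6g7 and 0.45 ± 0.21 in NOD. The mean over strains was 0.52 ± 0.15 (1.43 times). Over all probe sets limma called 13 here (0.105%, with 0.0403% higher and 0.0644% lower in BDC2.5 cells) and 28 with the replicate block. The Cnn2 values are again a description without a test. The highest-numbered arrays alone gave 0.51 in B6g7 and -0.04 in NOD, and the other arrays 0.56 and 0.76.

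In order, the Cnn2 groups were BDC2.5/B6g7 at 16 h (8.42), BDC2.5/NOD at 16 h (8.30), BDC2.5/B6g7 without peptide (7.68), BDC2.5/NOD without peptide (7.62), wild-type NOD (7.162) and wild-type B6g7 (7.102) by mean log2 level. Only the step from the peptide groups to those without, of 0.62, was larger than the spread without overlap of the arrays. The step of 0.45 from NOD without peptide to wild-type NOD exceeded the SD of either group, but the arrays overlapped at 151 and 155. The strain differences of Cnn2 were -0.07 ± 0.19, -0.11 ± 0.19 and 0.06 ± 0.24 in the 3 settings (no peptide, 16 h, wild-type), each smaller than its standard error.

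Cnn1 stayed near the bottom of the intensity range in every group. Its 16 values ran from 28.9 to 38.9, below the median of every array, and without detection calls whether Cnn1 was detected is unknown. The group means lay between 4.99 and 5.09 on the log2 scale, every neighbour in their order overlapped, and no step was larger than 0.05. The differences averaged over strains were 0.02 ± 0.08 with peptide and -0.01 ± 0.09 with the transgene, and the strain differences were 0.03, -0.09 and -0.10.

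The members did not vary together over all arrays. Pearson's r of log2 values over the 16 arrays, which share groups and array sets, was 0.095 between Cnn2 and Cnn3, 0.126 between Cnn1 and Cnn2 and 0.031 between Cnn1 and Cnn3. Cnn2 and Cnn3 gave 0.823 over the 8 NOD arrays and -0.586 over the 8 B6g7 arrays.

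Genes with the profile most like Cnn2 over the 16 arrays were Nab2, a corepressor of Egr factors (r = 0.918), Ephx1, an epoxide hydrolase (0.917), Nr4a1, an orphan nuclear receptor induced by T cell receptor signals (0.908), and Nme1, a nucleoside diphosphate kinase (0.904). Their peptide differences averaged over strains were 0.60, 0.98, 1.87 and 0.36, beside 0.71 for Cnn2. Within each strain r ran from 0.871 to 0.935 over the 8 NOD arrays and from 0.911 to 0.979 over the 8 B6g7 arrays. The genes were chosen by r over these same 16 arrays, and Cnn2 differed little between strains. High values within strains therefore follow largely from the choice.

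Genes most like Cnn3 were the unnamed transcript 1700097N02Rik (r = 0.943), Vcp, an ATPase of protein turnover (0.904), the non-coding transcript Epb41l4aos (0.899) and Pdk1, a kinase of pyruvate dehydrogenase (0.892). Each was lower in NOD in all 3 settings, 1700097N02Rik by -1.47, -0.98 and -1.50 and Pdk1 by -1.58, -1.21 and -2.08. The genes were chosen by likeness to Cnn3 over the same arrays, so their lower level in NOD follows from the choice. Within the 8 NOD arrays r was 0.491, 0.197, 0.894 and -0.175 in this order. Within the 8 B6g7 arrays it was 0.799, 0.785, 0.023 and 0.666, so that none of the 4 was as like Cnn3 within both strains as over all arrays. The Vcp probe set was dim, between 14.7 and 34.1. The profiles most like Cnn1 were those of Maged1 (0.897), Artn (0.885), Rasip1 (0.866) and Aire (0.856), whose peptide differences lay between -0.06 and 0.04.

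**Figure D4:**
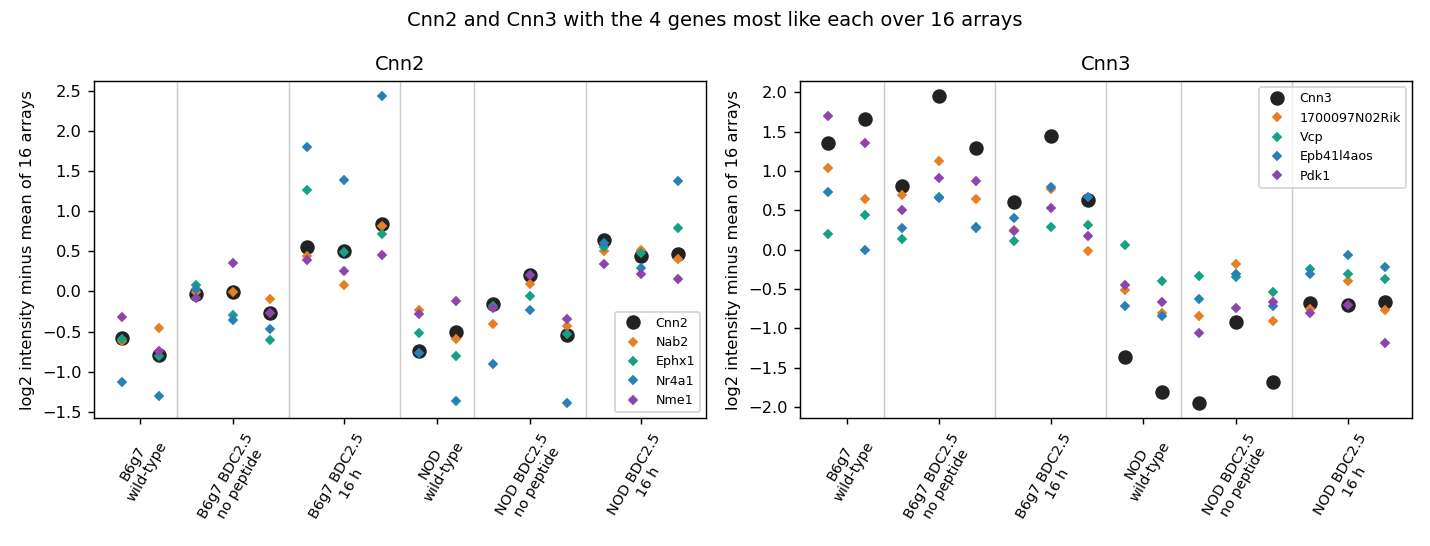
Log2 intensity of Cnn2 (left), Cnn3 (right) and the 4 genes most like each, as the difference from the gene's own mean over the 16 arrays, with arrays in groups along the horizontal axis. The genes like Cnn2 are highest in the peptide groups, and the genes like Cnn3 are higher in B6g7 than in NOD. Both patterns follow from choosing these genes by likeness over the same arrays.

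The nearest measured genes on the chromosome were set beside the members, a choice made after the calponin values were seen. Taking 4 measured genes on each side in the RefSeq order of GRCm38.p6, limma called 0 of 8 neighbours of Cnn3 between strains in any setting, and 2, 2 and 0 had an unadjusted p under 0.05, beside 428, 705 and 259 of all 12422 probe sets. These were Abcd3, a peroxisomal transporter, at -1.11 ± 0.50 without peptide and -1.20 ± 0.50 at 16 h, and Frrs1, a ferric reductase, at -0.56 ± 0.20 and -0.87 ± 0.20. In wild-type cells they gave -0.98 ± 0.61 and -0.37 ± 0.24. The genes next to Cnn3, Tlcd4 and F3, lay within 0.13 of 0 in all settings. Both were dim, with mean log2 levels of 3.61 and 4.15, so a strain difference in them might not be visible. None of the 8 neighbours of Cnn2 or of Cnn1 was called, or had an unadjusted p under 0.05, in any setting.

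The transgelins are the closest relatives of the calponins, and all 3 were measured. Tagln2, the form of lymphocytes, read 322 to 483 and gave strain differences of 0.28 ± 0.16, 0.16 ± 0.16 and 0.31 ± 0.20. Tagln and Tagln3 stayed between 22.6 and 35.2 with strain differences from -0.14 to 0.06. limma called 0 of the 3 in any comparison, where it called 0.0242% to 0.491% of all probe sets, and 0 had an unadjusted p under 0.05. Their peptide differences were 0.07, -0.09 and 0.09 for Tagln, Tagln2 and Tagln3.

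Of 38 listed proteins with a CH domain, 23 were measured. limma called 1, Gas2, in 1 comparison, the strains at 16 h, where it called 0.491% of all probe sets. Gas2 is a growth arrest protein that binds actin and microtubules, and its probe set was dim, between 19.0 and 60.5. Gas2 was lower in NOD at 16 h, at -1.22 ± 0.21 on the log2 scale (adjusted p = 0.0208), with -0.78 ± 0.21 without peptide (adjusted p = 0.351) and -0.67 ± 0.26 in wild-type cells (adjusted p = 1). The list's median strain differences were -0.01, -0.01 and -0.03, beside 0.03, 0.01 and -0.03 over all probe sets. With peptide, 10 of the 23 were higher and 13 lower (median -0.01, beside -0.02 over all probe sets). limma called 0 of them, beside 0.0242% of all probe sets, and 1 had an unadjusted p under 0.05, beside 445 of all 12422. This was the actin bundler Lcp1 at 0.66 ± 0.19 (adjusted p = 0.905). Iqgap1, a scaffold protein of the actin cytoskeleton, gave 0.95 ± 0.29 between strains in wild-type cells (adjusted p = 0.832).

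The smooth muscle contractile genes with which Cnn1 is known to act had 12 of 17 members measured. limma called 0 of them in any comparison, where it called 0.0242% to 0.491% of all probe sets. With peptide 0 of the 12 had an unadjusted p under 0.05, beside 445 of all 12422 probe sets. In each other comparison 1 did, beside 259 to 705 of all. The list's median was -0.03 with peptide, beside -0.02 over all probe sets. Between strains it was 0.03, -0.03 and -0.08, beside 0.03, 0.01 and -0.03. Vcl, the adhesion protein vinculin, pointed the other way from Cnn3, with 0.79 ± 0.23, 0.53 ± 0.23 and 1.29 ± 0.28 between strains in the 3 settings (adjusted p = 0.481, 0.805 and 0.174). Acta2 and Myh11, the actin and myosin of smooth muscle, read no more than 17.9 and 18.3.

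Regulators of the lymphocyte actin cytoskeleton had 50 of 59 members measured. limma called 0 of them in any comparison, where it called 0.0242% to 0.491% of all probe sets. With peptide 21 were higher and 29 lower (42.0% higher, median -0.04), beside 42.2% higher and a median of -0.02 over all probe sets. Of the 50, 2 had an unadjusted p under 0.05 with peptide, beside 445 of all 12422 probe sets. They were the thymosin Tmsb10 at 0.57 ± 0.22 and the severing protein Gsn at -0.58 ± 0.27 (adjusted p = 0.998 each). With the transgene 6 had an unadjusted p under 0.05, beside 331 of all 12422 probe sets, led by Tmsb10 at 1.05 ± 0.25 (adjusted p = 0.393). Between strains 3, 4 and 2 had an unadjusted p under 0.05, beside 428, 705 and 259 of all. Dock2, an activator of Rac, was among them in all 3 settings, at -0.48, -0.64 and -0.54. Evl was as well, in the other direction, at 0.47, 0.50 and 0.63. Tmsb10 was among them in the first 2 settings, at 1.01 and 0.90, and Arpc5 at 16 h only, at -0.37.

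SRF target genes, listed because calponin genes are among the contractile and cytoskeletal genes that SRF can drive, had 21 of 23 members measured. limma called 0 of the 21 in any comparison, where it called 0.0242% to 0.491% of all probe sets. With peptide 12 were higher and 9 lower (57.1% higher, median 0.03), beside 42.2% higher and a median of -0.02 over all probe sets. Of these members 3 had an unadjusted p under 0.05, beside 445 of all. The immediate-early genes Ier2 at 0.64 ± 0.21 and Fos at 0.91 ± 0.32 led them (limma adjusted p = 0.998 each). With the transgene 13 were higher and 8 lower (median 0.04, beside 0.01 over all probe sets, of which 53.7% were higher), and 4 had an unadjusted p under 0.05, beside 331 of all 12422, led by Ier2 at 0.83 ± 0.24 and Egr1 at 0.97 ± 0.30 (adjusted p = 0.941 and 1). Between strains the list's medians were -0.01, 0.04 and -0.05, beside 0.03, 0.01 and -0.03 over all probe sets. Its share higher in NOD was 47.6%, 57.1% and 33.3%, beside 60.3%, 51.7% and 41.2%. In these settings 1, 2 and 1 members had an unadjusted p under 0.05, beside 428, 705 and 259 of all.

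Markers of other cells that express calponins were compared as summed intensities, and in whole samples fewer cells of a type and less RNA per cell cannot be told apart. Mesenchyme and fibroblast markers (15 of 16 measured) summed to 2260 to 3979 in NOD and 1879 to 3439 in B6g7, with mean log2 strain differences of 0.10, 0.08 and -0.12. Most of this sum was Thy1 (960 to 2857), which thymocytes also express, so it does not measure mesenchyme. The list's median strain differences were 0.00, 0.03 and -0.06, and Pdgfrb, Dcn, Lum, Sparc and Postn had median intensities of 11.9 to 18.3. Col1a1 lay between 122 and 187 and Col3a1 between 56.3 and 78.2 on the 16 arrays. Thymic epithelial markers (12 of 13) summed to 521 to 610 in NOD and 498 to 598 in B6g7, with Epcam between 14.5 and 18.1 and Krt8 between 79.0 and 108. Endothelial markers (7 of 9) summed to 444 to 816 in NOD and 489 to 759 in B6g7.

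Myeloid and dendritic markers (17 of 17), of cells known for Cnn2, summed to 923 to 1104 without peptide and 1076 to 1629 at 16 h in B6g7, a mean log2 difference of 0.34. In NOD they summed to 813 to 1190 and 824 to 1083, a difference of -0.06, while the Cnn2 difference was 0.68 there. Lyz2 lay between 18.2 and 57.9 and Cd68 between 41.6 and 75.8. Ctss had the widest range of the myeloid list, 41.2 to 697, so its level can move the sum. Its peptide difference averaged over strains was 0.44 ± 0.60. Between strains the myeloid sum differed by -0.06, -0.46 and -0.01 in the 3 settings. At 16 h 13 of 17 members were lower in NOD and 4 higher. limma called 0, and 5 had an unadjusted p under 0.05, beside 705 of all 12422. Among the 5 were Lyz2 at -1.03 ± 0.34 and Tyrobp at -0.69 ± 0.17. Double-positive markers (11 of 14) differed by -0.45 in B6g7 and -0.24 in NOD with peptide, and by -0.36 on average with the transgene. B cell (7 of 8), erythroid (5 of 9) and NK markers (6 of 9) had peptide differences of -0.04, -0.01 and 0.12 averaged over strains, and NK markers had strain differences of -0.43, -0.12 and -0.40 as a sum. That sum was mostly Gzma (142 to 558; -0.63, -0.13 and -0.67), and the NK list's medians were 0.00, -0.12 and -0.06, with 3 of 6 higher without peptide. The lowest value of any probe set is 7.77, so a marker reading above 0 does not show that its cells were present. The part of these cells in the Cnn2 and Cnn3 values was not tested.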

How the data were processed

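The deposited values are linear intensities (7.77 to 14085), 1 for each array and probe set. Array medians lay within 0.113 on the log2 scale, so the values appear scaled between arrays. The sources used here do not state how the authors scaled, background-corrected and summarised them. Values were taken to log2 without a pseudocount. The 66 control probe sets of 12488 were left out, leaving 12422, of which 10833 named 1 gene, 396 several and 1193 none. Gene IDs of 10817 matched the mouse RefSeq table.

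A linear model with 1 mean per group was fitted to all 16 arrays with limma 3.58.1 (R 4.3.3), moderating variances with a trend on intensity (10 residual and 3.6 prior degrees of freedom). Two-sided p-values were adjusted by Benjamini-Hochberg within each comparison, with calls made under 0.05. After a difference, ± gives the fitted standard error. The script was tested on simulated data. Gene lists used each gene's probe set of highest mean. The number of arrays limits the precision.

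Calponins and gene lists were chosen with earlier results of these data known. Tests of the calponins' peptide and transgene differences had been planned and were run, but their p-values are not given, because the choice used the group levels. The named genes were every calponin probe set, the 4 one-gene probe sets with the highest Pearson r to each member over 16 arrays, all transgelins, fixed markers, and of each pathway list and comparison the called members (at most 4) or the 2 with the smallest p.

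Array numbers in the titles were checked as pairs: deviations from group means correlated at 0.777, 0.165 and 0.842 between same-numbered arrays of the strains without peptide, 0.577, 0.234 and 0.569 at 16 h, and 0.639, 0.249 and 0.600 (B6g7) and 0.608, 0.581 and 0.793 (NOD) between peptide states. Between peptide states each array correlated best with the same number. Between strains a number 2 array correlated better with number 1 of the other strain, at 0.37 without peptide and 0.252 at 16 h. Number 2 was therefore not established as a pair between strains. The highest-numbered arrays stand apart as a set, so their values cannot separate pairing from the array set. Same-numbered arrays were compared all the same, and the labels do not state pairing. The wild-type numbers were not established as pairs with the BDC2.5 numbers (0.058 and -0.499 for number 2).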

Additional observations from a re-analysis of the deposited data

Results flagged for a closer look

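The peptide values of Cnn3 differed in direction between the strains: all 3 same-numbered pairs of B6g7 arrays were lower at 16 h and all 3 of NOD arrays were higher. The NOD minus B6g7 difference of these responses was 1.29 on the log2 scale. The difference was not tested, because the choice of Cnn3 used the group levels it is made of, and the pairs rest on array numbers.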

How the results depend on the processing

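Across the alternatives, all 3 strain differences of Cnn3 stayed negative: -3.17 to -2.55 without peptide, -1.72 to -1.30 at 16 h and -3.32 to -2.72 in wild-type cells. The peptide difference of Cnn2 averaged over strains lay between 0.53 and 0.80, and its transgene difference between 0.42 and 0.66. The replicate block gave Cnn2 0.71 with peptide and 0.57 with the transgene, and the array set as a block gave 0.71 and 0.50. The strain difference of Cnn2 in wild-type cells turned from 0.06 to -0.16 without the 6 highest-numbered arrays; the cause was not tested. Counts of called probe sets moved more. For the peptide response the count was 0 with a floor of 32, 7 with the replicate block, 8 with the array set as a block, and 0 to 10 without single arrays (0 without the B6g7 peptide array or the NOD no-peptide array numbered 1, 10 without the B6g7 peptide array numbered 2). For the transgene difference it was 28 and 29 with these blocks and 9 to 13 without single arrays. For the strain difference without peptide it was 69 and 82 with the blocks, 0 with only the groups compared, and 15 (without the NOD array numbered 2) to 24 without single arrays. At 16 h it was 129 and 144 with the blocks, 34 with the floor, 28 over probe sets with a mean above the median, 36 without the 6 arrays, 22 with only the groups compared, and 15 (without the NOD array numbered 1) to 42 without single arrays. In wild-type cells it was 32 and 47 with the blocks, 6 over probe sets above the median, 0 with only the groups compared, and 2 (without the B6g7 array numbered 1) to 7 without single arrays. The choice among several probe sets of a gene did not arise, and Cnn1 has no value above the median. Signal over background limits Cnn1, and the causes of these shifts were not tested.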
